A study of Mus musculus with 23 samples.

Results

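Mouse cells transferred after a stroke and recovered from the brain, labelled day 5, were compared with cultured cells, in 11 of the 23 RNA sequencing libraries of the series. The brain day 5 group had 6 libraries, and the baseline group, taken from culture, had 5. They were chosen by their labels alone. The labels call the cells group 2 innate lymphoid cells (ILC2s) and give their genotype as B6.Cg-Tg(CAG-GFP)Smoc, a transgene that drives green fluorescent protein from a general promoter. The protocol names transgenic and wild-type male donors of 8 to 10 weeks. Donors of both groups were given the cytokine IL-33 for 7 days, 1 dose every 2 days. From their spleen and bone marrow, cells without CD11b, Gr1, CD3ε, B220 or Ter119 and with CD25 were then separated by magnetic beads. They were cultured for 14 days with IL-33 and the γ chain cytokines IL-2, IL-7 and IL-15. The cultured cells were sorted by flow cytometry as CD45+Lin-ST2+KLRG1+CD127+, and those of the brain group were injected into a vein 6 h after middle cerebral artery occlusion (MCAO), a stroke model that blocks a main artery of the brain. How cells were isolated again from the brain, whether each brain library came from a separate recipient, the recipients' sex and whether the baseline passed the last sort were not found in the labels. They put replicates 1 to 3 of each group in batch 1 and the others in batch 2, which gave 3 and 2 baseline libraries and 3 and 3 brain libraries.

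ILC2s are tissue-resident lymphocytes without antigen receptors that answer the epithelial and stromal signals IL-33, IL-25 and TSLP. They depend on the transcription factors GATA3, RORα, BCL11B and ID2 and make type 2 cytokines. In the brain they live mainly in the meninges and around the choroid plexus, the tissue that makes cerebrospinal fluid.

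Recovered reads per library ran from 12.8 M to 36.8 M in the baseline and from 11.6 M to 58.1 M in brain (M, 1e6 reads). Reads were found for 10551 to 14167 genes in baseline libraries and for 15881 to 17072 in brain libraries. Levels are given as normalised read counts, which are not corrected for gene length. Differences are log2 differences, brain minus baseline, of the value plus 1, with the batch in the model, their standard error (SE) and a p-value adjusted over all tested genes. A gene is said to rise or fall only where this p was under 0.05. Within groups, brain replicate 2 stood furthest from its group, with a median correlation of 0.795 across genes, followed for the baseline by replicate 5, with 0.852. Baseline replicates 1 to 3 correlated at 0.975 to 0.983 and brain replicates 1 and 3 at 0.965, although their reads differed by more than sampling noise. Chi-square per degree of freedom was 4.19 to 12.5 in these pairs and 348 to 1300 in every other pair within a group. The sources used here do not say whether the libraries of such a pair come from 1 culture or animal, and the p-values measure the spread between libraries, which may be technical in part. In bulk libraries, fewer cells of a type and less RNA per cell cannot be told apart.

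Brain and baseline libraries differed in 7513 of 15268 tested genes, 49.2% of those tested. In brain 5733 genes rose, 37.5% of the tested genes, and 1780 fell, 11.7%. The median log2 difference was 0.67 over all tested genes (0.65 with genes read in 1 group only set at their bound, the fold against 3 reads per library), 5.34 over those that rose and -1.92 over those that fell. Rises thus made up 76.3% of the calls. With the reads scaled by TMM in place of the deposited size factors, 5050 rose and 2629 fell, 65.8% of calls upward, since this scaling moved the median of all genes by -0.36. With edgeR on the recovered reads, 4794 rose and 2751 fell, 63.5% of calls upward. Every brain library lay above every baseline library for 28.4% of tested genes, and every brain library lay below for 7.27%. The log2 difference had the same sign in both batches for 99.2% of the called genes.

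Of the baseline reads, Gzma took a mean of 5.79% (1.56%, the lowest, in replicate 4, and 7.21%, the highest, in replicate 2) and Gzmb a mean of 2.92%, both granule proteases of cytotoxic lymphocytes. Gzmf took 8.59 to 9.29% in batch 1 but 0.565 and 0.311% in batch 2. Spp1, which encodes the secreted protein osteopontin, took 0.551 to 0.598% in batch 1 and 1.52 and 3.52% in batch 2, and 0.0943 to 1.71% of brain reads. Of the brain reads, the lysosomal protease gene Ctsd took a mean of 2.44%, the thyroxine carrier gene Ttr 2.17%, the lipid carrier gene Apoe 1.95%, Enpp2 1.61% and Ctsb 1.41%. Of the genes that rose, 1301 had no read in any baseline library, while 34 genes that fell had none in any brain library. The gene lists used here were described by how many of their tested members rose or fell, beside the shares for all tested genes.

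**Figure D1:**
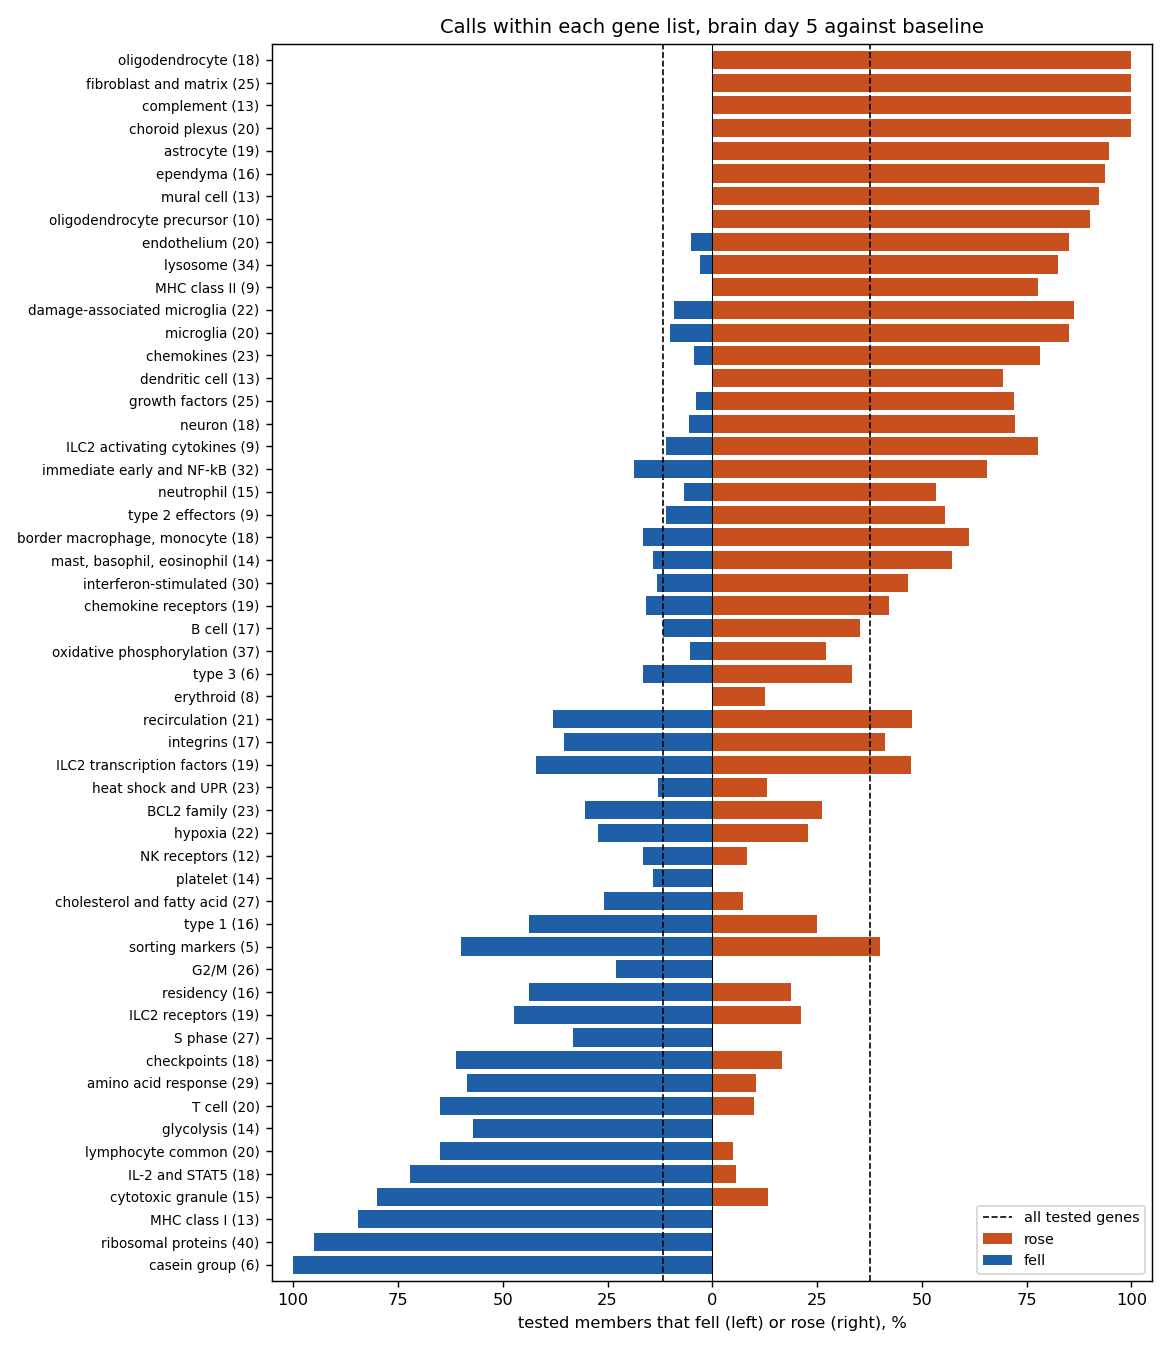
Share of the tested members of each gene list that rose (right bars) or fell (left bars) in brain day 5 against baseline, in percent, with the number tested in brackets; dashed lines mark the shares over all tested genes, 37.5% and 11.7%. The choroid plexus, fibroblast and matrix, oligodendrocyte and complement lists stand at the top, and the granule, ribosomal, MHC class I and casein lists at the bottom.

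The sorting markers matched the label only in part: in the baseline Ptprc, Klrg1 and Il2ra were high and Il1rl1 and Il7r low, and in brain Klrg1 and Il2ra were near 0. The groups are therefore named here by where they were taken and not by cell type. Ptprc encodes CD45, carried by all leukocytes. Its normalised read counts were 17533, 16325, 15529, 12050 and 19947 in the baseline and ran from 700 to 2785 in brain, with a median of 1566. Every brain library was below every baseline library, and Ptprc fell by 3.49 ± 0.36 (SE) on the log2 scale, adjusted p = 2.4e-08. Klrg1, which encodes the inhibitory receptor KLRG1, stood at 17782, 17922, 18025, 15664 and 50175 in the baseline and at 1.87 to 23.4 in brain, median 7.31. Il2ra, which encodes CD25, stood at 14363, 13604, 13451, 13772 and 21066, against 0 to 15.5 in brain, median 7.40. Both genes were thus near 0 in all brain libraries, and each fell by 11.34 (SE 0.55 and 0.67, adjusted p = 1.1e-13 and 2.8e-12).

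The other sorting markers were low in both groups. Il1rl1, the gene of ST2, the receptor for IL-33, had 3 reads in the whole baseline, all in replicate 1, and ran from 3.41 to 136 in brain with a median of 34.3. The ratio of read rates was 108 (95% counting interval 36.8 to 525, which covers counting error only), and the groups overlapped, as brain replicate 2 lay below baseline replicate 1. Il7r, which encodes CD127, stood at 75.8, 18.3, 11.6, 16.9 and 0 in the baseline and at 35.8 to 142 in brain, median 83.8. It rose by 2.73 ± 0.75, adjusted p = 0.0039, again with overlap, as baseline replicate 1 lay within the brain range. Within batch 1 alone neither Il1rl1 nor Il7r was called, and with edgeR Il7r was not called (1.57, adjusted p = 0.0906).

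T cell receptor genes were high in the baseline, although the cells had been depleted of CD3ε before culture. Of 20 tested T cell genes 13 fell, with a median log2 difference of -7.80. Cd3e, a chain of the T cell receptor complex, stood at 4847, 4968, 5431, 19429 and 8260 in the baseline and at 0 to 16.4 in brain, median 10.8. Trbc1, a constant region of the receptor's beta chain, stood at 18661, 19531, 19748, 27172 and 32204, against 0 to 24.6, median 9.71. Both sets of libraries were fully apart, and Cd3e fell by 9.88 ± 0.55 and Trbc1 fell by 11.92 ± 0.62 (adjusted p = 9.2e-13 and 2.9e-13). The list took 0.557 to 1.33% of baseline reads and 0.00162 to 0.00265% of brain reads. Further depletion antigens behaved differently from each other. Ly6g, part of the Gr1 epitope, fell by 6.70 ± 1.18 from 422 to 1053 in the baseline to at most 18.7. Itgam, which encodes CD11b, had no baseline read, stood at 1.87, 0 and 0 in the batch 1 brain libraries and at 822, 3841 and 4501 in those of batch 2. Its difference depended on the batch, adjusted p = 0.0045 for the interaction.

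**Figure D2:**
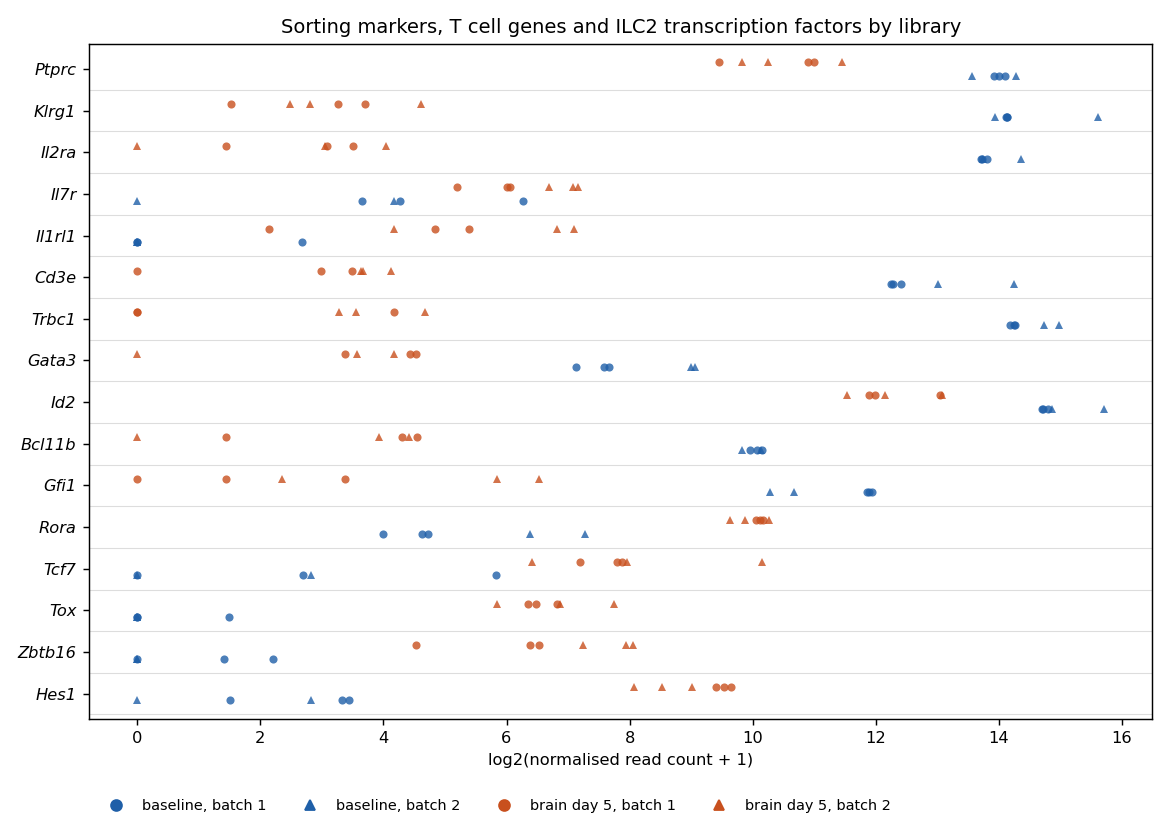
Levels of the sorting markers, T cell genes and ILC2 transcription factors as log2(normalised read count + 1), 1 point per library, baseline in blue and brain day 5 in orange, circles for batch 1 and triangles for batch 2. Klrg1, Il2ra, Cd3e and Trbc1 separate fully, with the brain libraries near 0, while Rora, Tox and Hes1 separate in the opposite direction.

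Transcription factors of ILC2s moved in both directions, 9 rising and 8 falling of 19 tested, beside 37.5% rising and 11.7% falling of all tested genes. Id2, which blocks E-protein factors in all innate lymphoid cells, stood at 28441, 26837, 26559, 29887 and 53645 in the baseline and at 2970 to 8644 in brain, median 4295. Gata3, the factor of type 2 lymphocytes, was low throughout, at 191, 203, 139, 534 and 510 in the baseline and 0 to 22.2 in brain, median 13.9. Bcl11b, which maintains T cell and ILC2 identity, stood at 1069, 992, 1132, 1118 and 907 against 0 to 22.4, median 16.4. In all 3 genes every brain library was below every baseline library. Id2 fell by 2.67 ± 0.27, Gata3 fell by 4.73 ± 0.63 and Bcl11b fell by 6.92 ± 0.65 (adjusted p = 1.6e-08, 1.1e-06 and 5.2e-09). Gfi1, Nfil3, Batf, Irf4 and Pparg, factors of lymphoid differentiation and activation, fell as well, with differences of -8.11, -2.12, -4.19, -6.01 and -4.45. Within batch 2 alone Irf4 was not called (-3.48, adjusted p = 0.0805).

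Rora rose where Gata3 fell. This nuclear receptor gene, needed for ILC2s and expressed by neurons and astrocytes too, stood at 25.3, 23.7, 14.9, 153 and 82.0 in the baseline and at 793 to 1235 in brain, median 1090. It rose by 4.64 ± 0.76, adjusted p = 1.8e-05, with no overlap. Tcf7, a factor of lymphoid progenitors, stood at 56.0, 5.48, 0, 6.10 and 0 against 84.4 to 1137, median 227, and rose by 5.63 ± 0.77. The Notch target Hes1 ran from 0 to 9.90 in the baseline and from 267 to 803 in brain, and rose by 6.84 ± 0.58. Tox had 1 baseline read and a ratio of 555 (95% counting interval 99.4 to 21955), and Zbtb16, which encodes PLZF, had 3 and a ratio of 278 (94.8 to 1347). Maf and Lmo4 rose as well, by 5.17 ± 1.11 and 2.94 ± 0.33, though within batch 1 alone Maf was not called (3.33, adjusted p = 0.0801).

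Of 19 tested receptors of ILC2s 9 fell and 4 rose. The list's median was -1.33, and its share was 0.340 to 0.418% of baseline reads and 0.0291 to 0.0421% of brain reads. Ltb4r1, a leukotriene B4 receptor gene, fell by 8.04 ± 0.36 and the costimulatory receptor gene Tnfrsf18 fell by 6.65 ± 0.56. Thy1, a marker of lymphocytes and neurons, stood at 22444, 23598, 23881, 33703 and 13316 in the baseline and at 43.4 to 1052 in brain. Its groups did not overlap, and it fell by 6.46 ± 0.74. Hpgds, which encodes a prostaglandin D2 synthase that macrophages and microglia also carry, was among the rises (4.60 ± 0.92). Within batch 2 alone it was not called (2.875, adjusted p = 0.0665).

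Products of type 2 cells were few in both groups. Of 9 tested, 5 rose and 1 fell, and without brain replicate 2 and baseline replicate 5, the libraries furthest from their groups, 3 rose and none fell. Penk, which encodes the opioid precursor proenkephalin and is made by activated ILC2s and by many neurons and astrocytes, stood at 5.42, 23.7, 8.25, 52.2 and 0 in the baseline. In brain it ran from 1873 to 13465, median 3437, the highest value in replicate 2, and rose by 8.64 ± 0.94 without overlap (adjusted p = 5.5e-08). Il10, a regulatory cytokine gene, fell by 3.50 ± 1.17, adjusted p = 0.016, but with a difference of -2.75 and without a call (0.0672) when baseline replicate 5 was left out. Il5 and Il2 were too low to be tested, with means of at most 0.691 in either group, and other genes of the list, such as Areg and Il13, were not analysed here.

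Granule genes were 7 of the 10 largest falls among named genes. Of 15 tested members of the cytotoxic granule list 12 fell and 2 rose, with a median of -11.65, and the list took 26.7, 27.3, 27.1, 5.80 and 10.5% of the reads of the 5 baseline libraries. In brain it took 0.0192 to 0.0326%. Gzma encodes a granule protease with trypsin-like activity. It stood at 1567765, 1691671, 1620688, 388455 and 1764935 in the baseline and at 17.0 to 359 in brain, median 51.5, and fell by 14.33 ± 0.62 (adjusted p = 1.8e-14). Gzmb, whose product cleaves caspases in target cells, stood at 800448, 856956, 851060, 396840 and 620474 against 8.61 to 107, median 21.3, and fell by 14.58 ± 0.54 (adjusted p = 3.1e-15). Prf1, which encodes the pore-forming protein perforin, stood at 253100, 258180, 265886, 138659 and 53884 against 0 to 42.5, median 18.2, and fell by 13.62 ± 0.68. In all 3 genes the groups were fully apart, and the highest brain values of Gzma and Gzmb were in replicate 6.

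The 4 largest falls were of granzyme genes that neighbour Gzmb. Gzmf (chr14:56205263-56211417, mm10) stood at 2142950, 2015000, 2096675, 140441 and 84549 in the baseline, far higher in batch 1 than in batch 2. In brain 3 libraries had no read and the others 19.5, 24.1 and 32.5, and Gzmf fell by 16.99 ± 1.36, adjusted p = 3.9e-10. Gzmd (chr14:56129556-56132608) stood at 854498, 953629, 919079, 62435 and 21013 in the baseline. Brain replicates 1 to 4 had no read, and replicates 5 and 6 had 24.7 and 17.6. Gzmd fell by 16.50 ± 1.31, Gzme fell by 15.05 ± 1.36 and Gzmc fell by 15.66 ± 0.90. The falls of Gzmd and Gzme were larger in batch 1, at -19.79 and -18.40, than in batch 2, at -12.18 and -10.56 (interaction adjusted p = 0.036 and 0.039). Gzmn had 1324 to 2589 in the baseline and no brain read. Against a floor of 3 reads per library, which stands in wherever a group held no read at all, it was at least 549.8-fold lower in brain.

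Granule genes of another kind moved less. Srgn, which encodes the proteoglycan that packs granules in many leukocytes, fell by 4.23 ± 0.54, from 28266 to 68504 in the baseline to 1215 to 5322 in brain. Gzmm, which lies on another chromosome, stood at 30.7, 36.5, 38.0, 9.49 and 0 against 46.7 to 203, median 63.3, and rose by 2.48 ± 0.76, adjusted p = 0.0087. Without brain replicate 2 and baseline replicate 5 its difference was 1.10 and was not called (0.0953), nor was it with library weights (0.655, adjusted p = 0.265) or edgeR (1.65, 0.0739). Serpinb9, which encodes an inhibitor of granzyme B, stood at 2818, 2283, 2549, 1139 and 4221 against 1664 to 4225, median 2416. Its log2 difference was 0.10 ± 0.32, and the ranges overlapped almost entirely.

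Gzmd and Gzme, whose fall was larger in batch 1, have similar promoters. These, 250 bases before to 50 after the RefSeq start on GRCm38.p6, are shown with the bases that differ in capitals (Gzmd, chr14:56132544-56132843; Gzme, chr14:56120576-56120875; both on the minus strand).
Gzmd: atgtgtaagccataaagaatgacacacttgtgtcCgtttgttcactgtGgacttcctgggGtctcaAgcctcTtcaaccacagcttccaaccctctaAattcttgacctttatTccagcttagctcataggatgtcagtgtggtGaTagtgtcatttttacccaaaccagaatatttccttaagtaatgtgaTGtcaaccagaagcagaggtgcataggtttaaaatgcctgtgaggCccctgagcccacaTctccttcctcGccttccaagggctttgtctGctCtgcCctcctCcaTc
Gzme: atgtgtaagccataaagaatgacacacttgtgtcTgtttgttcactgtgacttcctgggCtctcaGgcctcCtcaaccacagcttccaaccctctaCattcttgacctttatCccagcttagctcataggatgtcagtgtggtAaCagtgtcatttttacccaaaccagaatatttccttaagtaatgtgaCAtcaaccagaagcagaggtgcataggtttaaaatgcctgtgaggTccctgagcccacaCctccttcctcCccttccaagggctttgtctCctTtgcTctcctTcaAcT
Over the alignment 93.4% of columns were identical, with 18 differing bases and 2 gap bases. Gzmc and Gzmd matched in 82.7% of columns, Gzmd and Gzmf in 77.3%, and Gzmb matched Gzmc, Gzmd, Gzme and Gzmf in 45.0 to 48.0%. Transcripts were not compared. How the authors' counting treated reads shared by paralogs is not given, and the split among Gzmc, Gzmd, Gzme and Gzmf is uncertain.

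**Figure D3:**
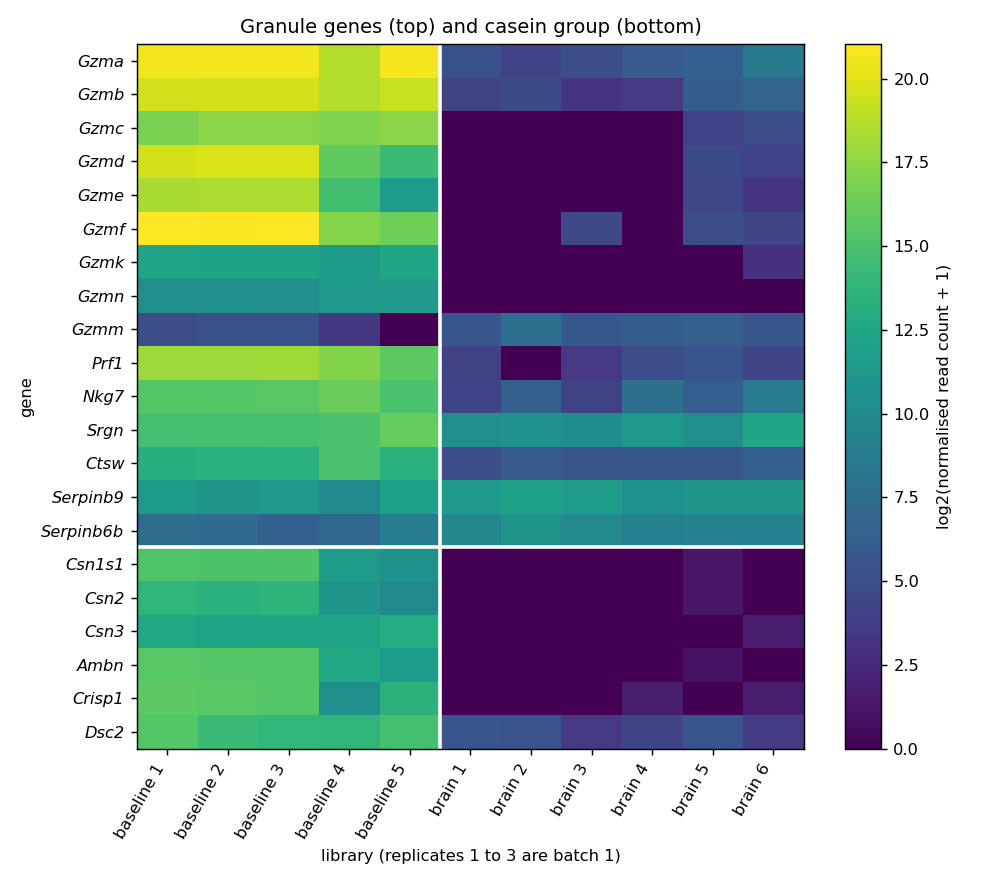
Levels of granule genes and of the casein group as log2(normalised read count + 1) in each library, with yellow high and dark purple at 0; replicates 1 to 3 are batch 1. The granzyme genes other than Gzmm are far higher in all 5 baseline libraries than in any of the 6 brain libraries, Gzmm is low in both groups, and the levels of Serpinb9 overlap.

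Milk and tooth genes fell with the granzymes. All 6 tested members of the casein group fell, with a median of -12.83, from 0.127 to 0.909% of baseline reads to at most 0.000224% of brain reads. This list was chosen because earlier results of these libraries showed its genes in culture, so its direction is a description. Csn1s1, which encodes a milk casein and is a standard target of the factor STAT5, stood at 38917, 35644, 37477, 2975 and 1751 in the baseline and had 3 brain reads, all in replicate 5. The baseline excess in read rate was 40268-fold (95% counting interval 13779 to 195270). Ambn, which encodes the enamel protein ameloblastin, stood at 49324, 45383, 45354, 5979 and 3236 and had 2 brain reads (79509-fold, 22010 to 656545). Crisp1, which encodes a secreted protein of the epididymis, fell by 13.62 ± 0.83. Levels of all 3 were lower in both batch 2 baseline libraries than in batch 1.

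Receptor and signalling genes of cytokines in the culture medium mostly fell. Of 18 tested genes of IL-2 and STAT5 signalling 13 fell, with a median of -2.15. Il2rb, the shared β chain of the IL-2 and IL-15 receptors, stood at 44844, 45177, 47508, 46820 and 28281 against 20.7 to 50.7 in brain, median 28.8, and fell by 10.36 ± 0.26 (adjusted p = 5.2e-18). Cish, a feedback inhibitor that STAT5 induces, stood at 12588, 11626, 12571, 9133 and 3694 against 189 to 797, median 324, and fell by 4.71 ± 0.36. The shared γ chain gene Il2rg fell by 4.15 and the kinase gene Jak3 fell by 3.28. Socs3, an inhibitor that STAT3 induces in many cells, moved the other way and rose by 2.64 ± 0.37, from 446 to 744 in the baseline to 2159 to 5431 in brain. None of these groups overlapped.

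Promoters of these genes were searched for the letters TTCNNNGAA, the form of a STAT5 site, which reads the same on both strands. They occurred in 8.30% of all 32851 RefSeq promoters of the same length. Among list members with a promoter in the table, 3 of 6 genes of the casein group had them (Csn1s1, Csn1s2a and Csn2), 3 of 15 granule genes (Gzmb, Gzmm and Nkg7) and 3 of 15 IL-2 and STAT5 genes (Cish, Lta and Socs3). Those of Gzmb, Csn1s1 and Cish are printed with the match in capitals, since their transcripts were among those that fell (Gzmb, chr14:56262285-56262584, minus; Csn1s1, chr5:87665958-87666257, plus; Cish, chr9:107296409-107296708, plus).
Gzmb: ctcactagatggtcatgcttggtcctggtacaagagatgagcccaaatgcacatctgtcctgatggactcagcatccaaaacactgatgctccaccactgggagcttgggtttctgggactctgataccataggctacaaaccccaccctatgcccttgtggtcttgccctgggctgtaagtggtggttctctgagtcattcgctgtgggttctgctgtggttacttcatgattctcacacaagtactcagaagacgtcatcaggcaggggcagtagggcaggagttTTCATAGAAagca
Csn1s1: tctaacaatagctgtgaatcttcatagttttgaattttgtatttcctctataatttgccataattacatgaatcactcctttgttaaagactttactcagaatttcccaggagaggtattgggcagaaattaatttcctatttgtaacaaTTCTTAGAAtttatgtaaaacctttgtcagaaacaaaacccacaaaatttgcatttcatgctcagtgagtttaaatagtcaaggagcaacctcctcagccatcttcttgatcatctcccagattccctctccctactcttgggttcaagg
Cish: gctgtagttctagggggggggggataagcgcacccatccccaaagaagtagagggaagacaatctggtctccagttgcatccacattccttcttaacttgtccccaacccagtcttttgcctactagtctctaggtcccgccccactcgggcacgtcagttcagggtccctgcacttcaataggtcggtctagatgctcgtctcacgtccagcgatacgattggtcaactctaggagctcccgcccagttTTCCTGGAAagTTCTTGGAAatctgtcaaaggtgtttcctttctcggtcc
The match lay 37 bases after the start in Gzmb and 100 bases before it in Csn1s1. Cish held 2 matches close to its start. Gzmm and Socs3, which rose, also held the letters, so a match did not go with one direction, and no binding was measured.

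Of 16 tested type 1 genes 7 fell and 4 rose, beside 11.7% falling and 37.5% rising of all tested genes. The factor gene Eomes stood at 5385, 6243, 6168, 3359 and 3197 in the baseline and at 0 to 29.0 in brain, and Ifng, which encodes interferon-γ, at 3436, 3339, 2963, 612 and 550 against 0 to 16.0. Eomes fell by 10.13 ± 0.81 and Ifng fell by 9.47 ± 0.78, and the death ligand gene Fasl fell by 10.34 ± 0.64. The chemokine genes went apart: Ccl5 fell by 5.81 ± 0.55, while Ccl3, which microglia also make, rose by 9.61 ± 0.61 and Ccl4 by 9.78 ± 0.56. Ccl3 ran from 0 to 18.1 in the baseline and from 2608 to 18004 in brain, the highest in replicate 6. Of the 12 NK cell receptor genes tested, 1 rose and 2 fell, the falls not far from the share over all tested genes. Of 6 tested type 3 genes 2 rose and 1 fell (2 without baseline replicate 3), near the 37.5% and 11.7% over all tested genes. The IL-1 receptor gene Il1r1 had no baseline read and was at least 768-fold higher in brain.

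Inhibitory and costimulatory receptors mostly fell, 11 of 18, with 3 rises and a median of -2.95. Ctla4, a brake on T cell activation, stood at 5461, 5476, 5586, 3159 and 50579 in the baseline and at 0 to 9.34 in brain, and fell by 11.02 ± 1.28. The highest baseline value was in replicate 5. The costimulatory gene Tnfrsf9 fell by 11.66 ± 0.62, and Cd96 fell by 11.76 ± 0.50. Pdcd1, which encodes PD-1, had no baseline read and ran from 55.1 to 1652 in brain, at least 161-fold higher. Lag3, carried by exhausted lymphocytes and also by neurons and microglia, stood at 12.6, 1.83, 0, 1.36 and 2.95 against 390 to 6140, median 2695, and rose by 9.05 ± 1.13. The 3 receptors that rose, with Nt5e the remaining one, separated the groups fully.

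The largest rises were genes of meningeal, choroid plexus and glial cells. Col3a1, a fibrillar collagen gene of fibroblasts (chr1:45311538-45349706), had no baseline read. In brain it stood at 65012, 5181, 58000, 112552, 172160 and 170592, lowest in replicate 2, and was at least 24196-fold higher than the floor. The other stromal genes among the 10 largest rises were Bgn, Islr, Efemp1 and Igfbp5, each without a baseline read and at least 7558-fold, 5432-fold, 6264-fold and 11687-fold higher. Slc47a1, an organic cation exporter gene of meningeal fibroblasts among others, was at least 8036-fold higher, and Ptn, which encodes the growth factor pleiotrophin, 5363-fold. Opalin, a gene of myelinating cells, was at least 11527-fold higher, running from 8466 in replicate 1 to 159032 in replicate 6. Serpina3n, a protease inhibitor gene induced in reactive astrocytes, was at least 8037-fold higher. Ttr had no read in baseline replicates 1 to 3 and 203 and 261 in replicates 4 and 5, against 207774 to 1000727 in brain, median 593328. It rose by 15.57 ± 2.26 (adjusted p = 3.5e-06), by 19.44 in batch 1 and 10.38 in batch 2 (interaction adjusted p = 0.00059).

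Markers of brain epithelium and glia rose almost without exception. All 20 choroid plexus genes rose, with a median of 11.39, and took 1.65 to 8.16% of brain reads against at most 0.00202% of baseline reads. Enpp2, which encodes the lysophospholipase autotaxin and is abundant in that epithelium, stood at 7.22, 1.83, 4.95, 184 and 66.5 in the baseline and at 136805 to 1200310 in brain, the highest in replicate 2. Of 16 tested ependymal genes 15 rose, among them Foxj1, the master factor of motile cilia, with no baseline read and 361 to 5343 in brain. All 18 oligodendrocyte genes rose (median 11.21, or 11 at the bound), to 1.28 to 2.02% of brain reads. Astrocyte genes rose in 18 of 19, with Gfap at 0 to 11.5 in the baseline and 5150 to 16935 in brain, and precursors of oligodendrocytes rose in 9 of 10.

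Vessel, matrix and neuron genes rose as well. All 25 fibroblast and matrix genes rose (median 11.66, or 10.95 at the bound), 12 of 13 mural cell genes, and 17 of 20 endothelial genes with 1 fall, Ly6a, which lymphocytes share. Slco1a4, a transporter of the blood-brain barrier, was at least 4477-fold higher and Pdgfrb, a pericyte receptor gene, at least 2509-fold. Of 18 neuron genes 13 rose and 1 fell, the fall being Thy1, which kept the summed share of the list higher in the baseline (0.0495 to 0.137%) than in brain (0.00681 to 0.0426%). Gria2, a glutamate receptor subunit gene of neurons, stood at 44.3 in brain replicate 2 and at 590 to 1381 in the others, with none in the baseline.

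**Figure D4:**
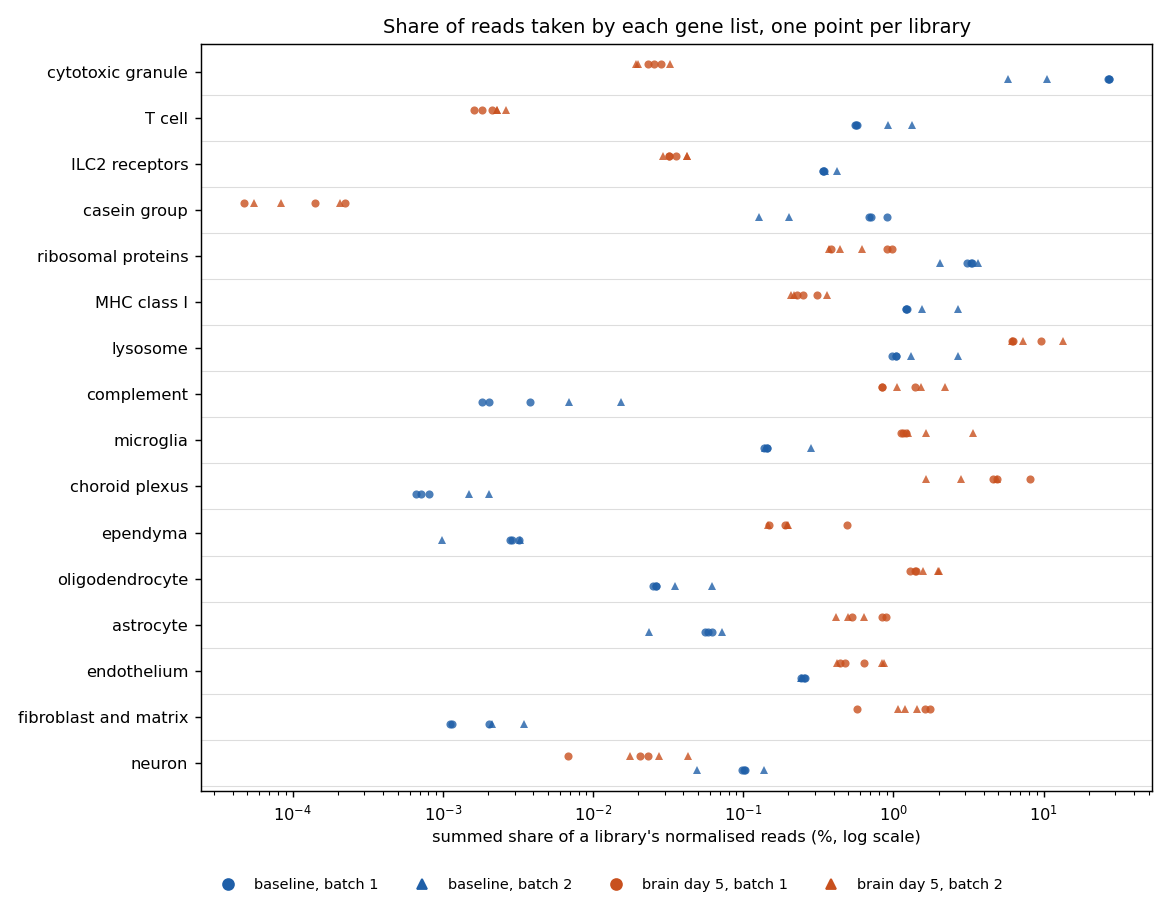
Summed share of normalised reads taken by each gene list on a log scale, 1 point per library, baseline in blue and brain day 5 in orange, circles for batch 1 and triangles for batch 2. The granule and T cell lists are lower in brain by orders of magnitude, and the choroid plexus, ependyma and matrix lists are higher in brain, while the neuron list is lower in brain.

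Microglia genes together took a higher share of reads in every brain library than in any baseline library. Of 20 microglia genes 17 rose and 2 fell, with a median of 7.91, and the list took 1.12 to 3.40% of brain reads against 0.137 to 0.283% in the baseline. Csf1r, the receptor that microglia need to survive, stood at 397, 144, 200, 104 and 226 in the baseline and at 21444 to 104040 in brain, median 37175, and rose by 7.84 ± 0.41 (adjusted p = 3.1e-13). Tmem119, a microglial membrane protein gene, stood at 16.2, 5.48, 13.2, 86.1 and 35.5 against 7176 to 31178, median 16383, and rose by 9.48 ± 0.82. The purinergic receptor gene P2ry12, which marks resting microglia, rose by 4.36 ± 0.80. All 3 genes separated the groups, and the highest Csf1r and P2ry12 values were in replicate 6. Selplg, which lymphocytes also carry, was among the falls.

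Genes of the damage response of microglia rose in 19 of 22 tested. Apoe, the main lipid carrier of the brain, stood at 661, 301, 347, 546 and 643 in the baseline and at 266811 to 980483 in brain, median 406916, and rose by 9.90 ± 0.40 (adjusted p = 7.0e-15). Trem2, the lipid receptor that starts this response, rose by 9.67 ± 0.50. Cst7 and Lgals3, part of the same response but also of activated lymphocytes, had differences of -2.82 ± 0.29 and -3.92 ± 0.56 and so fell. Spp1 stood at 137829, 129269, 131215, 378054 and 956221 in the baseline and at 22426 to 492281 in brain, median 105276. Its difference was -1.13 ± 0.69, adjusted p = 0.18 (-1.62 and 0.0457 without brain replicate 2), and its sign differed between batch 1 (0.41) and batch 2 (-3.10).

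Complement and lysosome genes rose together. All 13 tested complement genes rose, with a median of 8.75, and C1qa, a subunit of the first complement component made by microglia, stood at 10.8, 0, 0, 17.6 and 62.1 against 25101 to 100976, median 41515. It rose by 12.63 ± 0.94. Of 34 lysosome genes 28 rose, from 0.978 to 2.68% of baseline reads to 6.13 to 13.3% of brain reads. Ctsd stood at 70874, 74656, 77924, 152345 and 76303 against 386385 to 1149455, median 516121, and rose by 2.75 ± 0.40. Ctsb rose by 4.42 ± 0.37, the progranulin gene Grn by 3.62 ± 0.40 and the asparagine protease gene Lgmn by 9.57 ± 0.39.

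Antigen presentation moved in opposite directions by class. Of 9 MHC class II genes 7 rose and none fell, and Cd74, the invariant chain gene, stood at 3546, 1074, 487, 4789 and 391 against 5614 to 22746, median 9234, a rise of 2.96 ± 0.54. Of 13 MHC class I genes 11 fell and none rose. H2-K1, a heavy chain gene, stood at 134556, 147994, 152894, 332016 and 134386 against 11414 to 26603, median 15976, and fell by 3.33 ± 0.26 (adjusted p = 2.1e-10). The light chain gene B2m fell by 2.14 ± 0.44.

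Other leukocytes were marked unevenly. Of 18 border macrophage and monocyte genes 11 rose and 3 fell. Their summed share overlapped, at 0.0751 to 0.266% of baseline reads and 0.119 to 0.312% of brain reads. Of 13 dendritic cell genes 9 rose. Of 15 neutrophil genes 8 rose, but 5 without baseline replicate 5. The share of the neutrophil list overlapped, at 0.00462 to 0.036% in the baseline and 0.0215 to 0.278% in brain. Its median difference was 1.87 in batch 1 and 5.64 in batch 2. The brain share peaked in replicate 6, where Mpo, a granule enzyme gene of myeloid precursors, stood at 39051 while replicate 3 had no read. Of 14 mast cell, basophil and eosinophil genes 8 rose, the tryptase gene Tpsb2 by 9.35 ± 1.26. The median of this list was 1.07 in batch 1 and 7.68 in batch 2. Its share of brain reads was 0.00864 to 0.0111% in batch 1, below every baseline library (0.0123 to 0.0182%), and 0.0460 to 0.0816% in batch 2. B cell genes rose in 6 and fell in 2 of 17, a share of rises near the 37.5% over all tested genes. Erythroid genes rose in 1 of 8 (2 without baseline replicate 4), and platelet genes in none of 14 (3 without baseline replicate 4). What part the brain cells and other leukocytes whose genes rose had in any other result, the ILC2 lists included, was not tested.

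Signals that ILC2s are known to answer were higher in the brain libraries. Of 9 tested activating cytokines and mediators 7 rose and 1 fell. Il33, the alarmin of stromal cells, oligodendrocytes and astrocytes, stood at 7.22, 1.83, 14.9, 6.10 and 10.3 in the baseline and at 3826 to 16762 in brain, median 5978, and rose by 9.70 ± 1.14 (adjusted p = 1.6e-07). Il25 and Tslp, the other epithelial alarmins, had no baseline read and ran from 12.1 to 181 and from 13.8 to 158 in brain, at least 23-fold and 17.3-fold higher. Ptgds, which encodes a prostaglandin D2 synthase of the meninges and choroid plexus, rose by 13.56 ± 1.59, by 15.87 in batch 1 and 10.35 in batch 2 (interaction adjusted p = 0.006). Il15 had 2 baseline reads and a ratio of 438 (95% counting interval 121 to 3617). Il7 was the fall, from 27.1 to 201 in the baseline to at most 13.6, by 3.72 ± 0.86. Within batch 1 alone Il7 was not called (-3.04, adjusted p = 0.0538). All 8 genes separated the groups.

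Most chemokine and growth factor genes rose, but the summed shares of both lists overlapped between the groups. Chemokine genes took 0.0157 to 0.289% of baseline reads and 0.119 to 0.309% of brain reads. Trophic factor genes took 0.599 to 3.57% of baseline reads and 0.659 to 2.29% of brain reads. Of 23 chemokine genes 18 rose, with a median of 8.32 (8.01 at the bound). Cxcl12, which holds leukocytes in stromal niches, stood at 0, 0, 0, 6.10 and 3.69 in the baseline and at 1206 to 12696 in brain. It was higher in batch 1 brain libraries, from 8134 to 12696, than in batch 2, from 1206 to 1581, and its difference depended on the batch (interaction adjusted p = 0.0071). Ccl8, a ligand made by macrophages, was at least 318-fold higher. Of 25 trophic factor genes 18 rose. The 1 fall, Tgfb1 (-1.63 ± 0.67, adjusted p = 0.047), lost its call without any 1 of baseline replicates 1 to 4 or brain replicates 2, 4 and 5 (0.0719 to 0.145). Igf2, the growth factor gene of meninges and choroid plexus, had 2 baseline reads and 1345 to 32302 in brain, a ratio of 25602 (95% counting interval 7087 to 211404).

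Genes of migration and residency were mixed, beside 37.5% rising and 11.7% falling of all tested genes. Of 21 recirculation genes 10 rose and 8 fell. S1pr1, the receptor by which lymphocytes leave tissue and one of endothelium and astrocytes too, rose by 8.49 ± 0.77, and its inducer Klf2 by 2.98 ± 0.32, while Gimap3, Gimap5, Gimap7 and Gimap8, GTPase genes of lymphocyte survival, fell by 3.86 to 6.19. Of 16 residency genes 7 fell and 3 rose. Cd69, which retains lymphocytes in tissue, stood at 3896, 3781, 3498, 5203 and 25994 against 82.3 to 189, median 121, and fell by 5.58 ± 0.50. Of 19 chemokine receptor genes 8 rose and 3 fell, both near the shares over all tested genes. Cx3cr1, the fractalkine receptor of microglia, rose by 6.01 ± 0.31, and Ccr4, a receptor of type 2 lymphocytes, had no brain read and was at least 37.9-fold lower. Baseline replicate 5 had no Ccr4 read either, and within batch 2 alone Ccr4 was not called (-3.39, adjusted p = 0.118). Of 17 integrin genes 7 rose, near the share over all tested genes, and 6 fell. The leukocyte chain gene Itgb2 stood at 47642, 45852, 50197, 53920 and 44964 against 6256 to 11064, median 6804, and fell by 2.73 ± 0.27, while Itgb5, of microglia and stromal cells, rose by 9.78 ± 0.76.

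Immediate early genes rose strongly. Of 32 genes of this response and of NF-kB signalling 21 rose and 6 fell. Fos, which encodes a subunit of the AP-1 factor and is induced within minutes by stimulation or tissue handling, stood at 426, 150, 154, 40.0 and 149 in the baseline and at 34892 to 125048 in brain, median 55814. It rose by 8.60 ± 0.44 (adjusted p = 2.3e-13). Egr1 rose by 7.28 ± 0.55 and Junb by 2.59, while Nfkb1, a subunit gene of NF-kB, fell by 2.94 ± 0.30. How the brain tissue was dissociated is not given in the labels, and its part in these rises was not tested. Of 30 interferon-stimulated genes 14 rose and 4 fell, not far from the 37.5% and 11.7% over all tested genes. Ifit1 rose by 8.60 ± 0.79, and the exonuclease gene Isg20 fell by 3.94 ± 0.47. In the heat shock and unfolded protein list 3 rose and 3 fell of 23, the falls near the share over all tested genes. Falls numbered 6 without baseline replicate 5 and 10 under TMM scaling. Hspa1b, an inducible chaperone gene, ran from 6.60 to 18.1 in the baseline and from 731 to 1966 in brain. In the BCL2 family of 23, 6 rose and 7 fell (4 without brain replicate 4), and the survival gene Bcl2 fell by 3.81 ± 0.38.

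Ribosomal protein genes fell almost uniformly. Of 40 tested 38 fell and none rose, with a median of -2.11, and their share went from 2.04 to 3.64% of baseline reads to 0.371 to 0.979% of brain reads. Rplp0, a stalk protein gene of the large subunit, stood at 52572, 54903, 54624, 60272 and 25390 against 7592 to 17731, median 11330. It fell by 1.98 ± 0.27 (adjusted p = 1.7e-06), with the lowest level of each group in baseline replicate 5 and brain replicate 5. Glycolysis genes fell in 8 of 14, the glucose transporter gene Slc2a3 by 6.20 ± 0.50 and the lactate dehydrogenase gene Ldha by 2.25 ± 0.29. Hypoxia targets were split, 5 rising and 6 falling of 22, beside 37.5% rising and 11.7% falling of all tested genes. Among the falls was the oxygen sensor gene Egln3, which fell by 5.18 ± 0.35. Cholesterol and fatty acid genes fell in 7 of 27. Genes of oxidative phosphorylation rose in 10 and fell in 2 of 37, and 2 rose and 7 fell under TMM scaling, so that no direction is given for them.

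Amino acid response genes fell in 17 of 29, with 3 rises and a median of -2.15. These genes are induced by the factor ATF4 when amino acids or protein folding run short, and Atf4 itself fell by 2.51 ± 0.33. Asns, which makes asparagine, stood at 10018, 9817, 8737, 7944 and 6322 against 286 to 1014, median 522, and fell by 4.09 ± 0.65 (adjusted p = 1.2e-05). Trib3, a feedback inhibitor of the response, stood at 1621, 1540, 1745, 7022 and 3243 against 102 to 262, median 129, and fell by 4.18 ± 1.01, although within batch 1 alone it was not called (-3.31, adjusted p = 0.0923). Slc7a11, the cystine importer gene, which astrocytes and meningeal cells also use, rose instead, by 3.52 ± 0.57, from 25.9 to 120 in the baseline to 448 to 1382. The groups did not overlap in any of the 3 genes.

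The letters TGATGNAA, the form of the C/EBP-ATF response element, were searched on both strands of the same promoters. They occurred in 3.97% of all promoters and in those of 8 of 26 list genes (Asns, Chac1, Nupr1, Pycr1, Slc1a4, Slc7a11, Trib3 and Vldlr). The promoters of Asns (chr6:7693160-7693459) and Trib3 (chr2:152344011-152344310), both on the minus strand, are shown with the match in capitals, since their levels are given above.
Asns: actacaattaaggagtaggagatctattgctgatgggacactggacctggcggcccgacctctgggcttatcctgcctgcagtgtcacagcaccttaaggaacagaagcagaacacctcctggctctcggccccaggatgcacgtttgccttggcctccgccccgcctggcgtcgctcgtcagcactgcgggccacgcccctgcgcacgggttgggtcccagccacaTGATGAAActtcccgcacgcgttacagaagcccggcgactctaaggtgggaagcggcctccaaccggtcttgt
Trib3: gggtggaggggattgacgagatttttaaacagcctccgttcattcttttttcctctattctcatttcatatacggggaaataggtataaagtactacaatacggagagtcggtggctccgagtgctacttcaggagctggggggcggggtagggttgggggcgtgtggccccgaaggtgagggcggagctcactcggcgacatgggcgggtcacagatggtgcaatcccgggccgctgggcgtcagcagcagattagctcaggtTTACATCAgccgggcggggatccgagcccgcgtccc
The match lay 23 bases before the start in Asns and 14 bases after it in Trib3. Slc7a11 held the letters too and rose.

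Baseline levels of cell cycle genes differed between the batches. Of 27 S phase genes 9 fell and none rose, and of 26 G2/M genes 6 fell and none rose. Without baseline replicate 5 these falls numbered 16 and 10, and without baseline replicate 1, 2 or 3 or brain replicate 4 the G2/M falls numbered 2 or 3. Top2a, a topoisomerase gene of dividing cells, stood at 13448, 13017 and 12967 in the batch 1 baseline, at 430 and 635 in that of batch 2, and at 289 to 1498 in brain. Mcm5, a helicase gene of DNA replication, likewise stood at 6878, 7480 and 7609, then at 424 and 386, against 724 to 2170 in brain. Its difference was -3.11 in batch 1 and 1.50 in batch 2, interaction adjusted p = 0.0059. Over both batches it was -1.19 ± 0.70 and not called (0.17), but -1.83 (0.03) and -1.87 (0.0243) without baseline replicate 4 or 5. For Mcm3 the values were -2.37 and 2.65 (0.0049). Fitted within batch 1, 19 S phase genes fell, and within batch 2 none fell and 2 rose. Pcna, the sliding clamp gene, fell by 2.01 ± 0.33, with 16296, 17326, 17619, 4200 and 9402 in the baseline and 1941 to 4110 in brain. Its groups did not overlap, though narrowly, and within batch 2 alone Pcna was not called (-1.20, adjusted p = 0.054).

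Over all tested genes, the difference depended on the batch in 376, 2.46% of those tested. Of these, 266 were also called over both batches, and 19 of the 266 had opposite signs in the batches. The count rested on single libraries: it was 2047 without baseline replicate 4 and 1051 without brain replicate 2, and 70 to 80 without baseline replicate 1, 2 or 3. Batch 2 libraries of brain were read more deeply, 47.7 M to 58.1 M against 11.6 M to 16.9 M, and those of the baseline likewise, 36.7 M to 36.8 M against 12.8 M to 14.3 M.

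**Figure D5:**
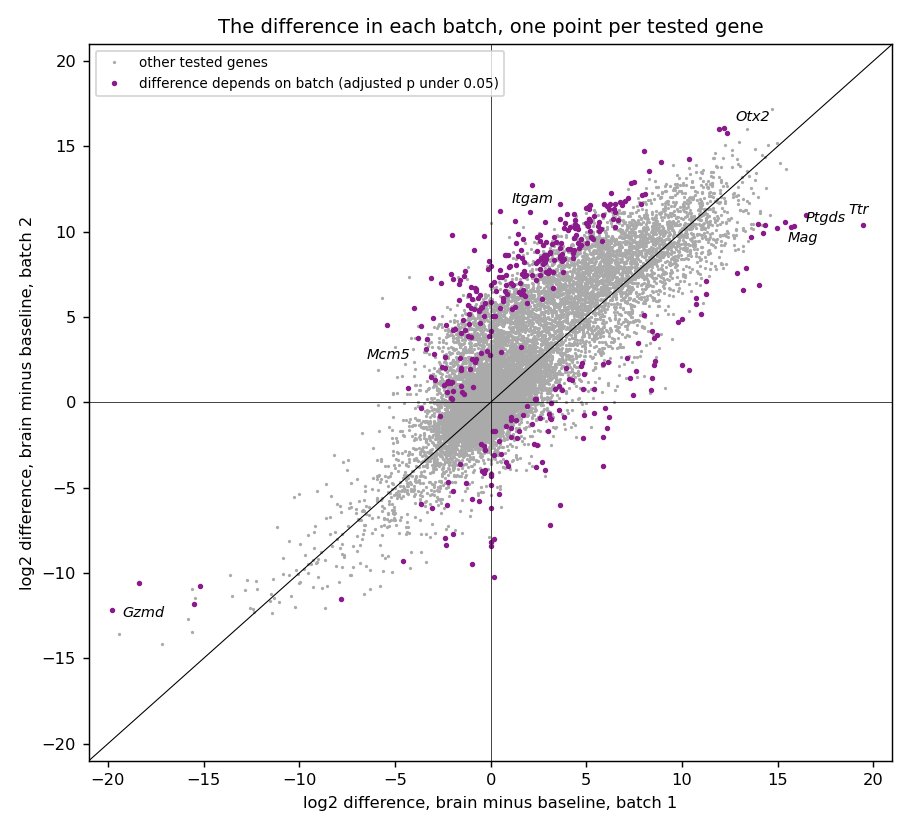
Log2 difference, brain minus baseline, in batch 1 (horizontal) and batch 2 (vertical), 1 point per tested gene; the 376 genes whose difference depended on the batch are purple and the line marks equal differences. Most points lie along the line, with Itgam and Mcm5 above it and Ttr, Mag and Ptgds below it.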

How the data were processed

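Whole-transcriptome libraries (poly-A selected, random-primed and sequenced in pairs of 150 bp reads, per the labels' protocols) were made from 23 samples. The submitters' processing notes name fastp, HISAT2 2.0.5 and mm10; how reads were counted, with which annotation and strand setting, is not given. The deposited signal is a normalised read count per gene symbol, in which the authors divided the reads of each library by 1 factor. Within a tolerance of 0.1 read, 100% of the values were whole multiples of what 1 read is worth, so reads per library were recovered, and recomputed median-of-ratios factors differed from those behind the table by at most 1.5e-08%. Genes that reached 10 in 5 or more of the 23 libraries were tested on log2(value + 1), with limma 3.58.1 (R 4.3.3, empirical Bayes with trend, robust), 4 groups and the batch, fitted to all 23 libraries. Fold changes on this scale understate the change of low genes. Tests were two-sided, with Benjamini-Hochberg adjustment over 15268 genes and a threshold of 0.05. The dependence of the difference on the batch was an interaction term in a fit to the 11 libraries of both groups.

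A fold against a group with no read is a lower bound, computed against 3 reads in each library of that group. Intervals and bounds cover counting error only. Promoters, 250 bases before to 50 after a gene's start, were read from RefSeq, and coordinates came from GENCODE M21, which matched 19931 of 19945 symbols. How reads shared by paralogs were counted is not given. Alternatives changed the pseudocount, filter, scaling, batch term, library weights, tool (edgeR 4.0.16 and DESeq2 1.42.0 on the recovered reads) and the libraries used. The scripts were tested on simulated data. Members and gene lists were chosen with earlier results of these data known. The text names the 10 largest rises and falls whose higher group averaged 100 or more, with 1 sign in both batches (predicted genes left out), the members of the short lists of sort markers, lineage antigens, ILC2 factors, type 2 genes and granule genes, and up to a few highest or most changed members of each other list; further members were named after their values were seen. Some listed genes are not analysed or not reported here.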

Additional observations from a re-analysis of the deposited data

Results flagged for a closer look

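Of 280 gene and group combinations examined, 47 had 1 library far from the others of its group, 16.8%, where chance gives about 1 in 20. All values here are normalised read counts. Baseline replicate 5 stood apart in 19 of them. It was high for Cd69 (25994), Ctla4 (50579), Fasl (17997), Id2 (53645), Il2ra (21066), Klrg1 (50175), Srgn (68504), P2ry12 (386) and Tpsb2 (4.43). It was low for Atf4 (5290), Ccr4 (0), Cish (3694), Il2rb (28281), Jak3 (4665), Lmo4 (122), Maf (0), Nfkb1 (4737), Rplp0 (25390) and Tgfb1 (207). The activation and sort marker genes Cd69, Ctla4, Il2ra and Klrg1 were thus higher there than in the other 4 baseline libraries, and the IL-2 signalling genes Il2rb, Jak3 and Cish lower.

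Brain replicate 2 stood apart in 11. It was high for Gzmm (203), Il33 (16762), Isg20 (1111) and Trib3 (262), and low for Col3a1 (5181), Foxj1 (361), Gria2 (44.3), Il1r1 (327), Maf (27.3), Pdgfrb (249) and Prf1 (0). Genes of fibroblasts, pericytes, ependymal cells and neurons were among its low values. Foxj1 did not stand for the ependymal list, whose summed share was highest in this library, at 0.487% of reads. In the other brain libraries that share was 0.146 to 0.199%.

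Baseline replicate 4 was high for Cst7 (29912), Ctsd (152345), H2-K1 (332016) and Selplg (65066), and low for Gzma (388455) and Tnfrsf9 (23091). Brain replicate 6 was high for Ccl3 (18004), Itgb2 (11064) and Mcm5 (2170), and listed at 0 for Gata3. The remaining cases were at few reads. Baseline replicate 1 was high for Il1rl1 (5.42) and Tox (1.81), and brain replicate 5 for Ambn (0.914) and Csn1s1 (1.37). Brain replicate 1 was at 0 for Cd3e and Tnfrsf9, and brain replicate 3 was at 0 for Gimap7.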

How the results depend on the processing

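Between 4633 (batch 1 only) and 6735 (library weights) genes rose under the 27 alternatives to the reported setting, in which 5733 did. Falls, 1780 as reported, numbered 3054 with library weights, 2751 with edgeR and 1287 to 2629 otherwise. Leaving out 1 library gave 5456 to 5846 rises and 1629 to 1837 falls. The replicate block gave 5687 and 1743. Same-number correlations of deviations from the group and batch mean were -0.0018 to 0.0401, and none of 5 was over 0.1. Within their batch, 4 of 5 baseline libraries correlated best with the brain library of their own number. Whether equal numbers pair these samples cannot be settled this way, since the deviations of the 2 batch 2 baseline libraries mirror each other. The replicate block changed no call of a named gene. The count of genes whose difference depended on the batch, 376, was the least stable (its alternatives were added after the data were seen). It ran from 70 to 2047 when 1 library was left out, the highest without baseline replicate 4 and 1051 without brain replicate 2, and was 2710 without brain replicate 2 and baseline replicate 5.

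Of 140 named genes 136 were called, and 121 kept the call in all 27 alternatives that gave an adjusted p. The other 15 lost it within 1 batch alone. Ccr4, Hpgds, Irf4 and Pcna lost it only within batch 2, and Il1rl1, Il7, Itgam, Maf and Trib3 only within batch 1. The remaining 6 of the 15 (Gzmm, Il10, Il7r, Mpo, Tgfb1 and Top2a) also lost it under other settings. For 4 of these 6 (all but Gzmm and Il7r) this happened when 1 library was left out. Directions reversed for 5 genes. Mcm3 was at 2.65 within batch 2, at 0.957 with the closest libraries averaged, and at -1.07 to 0.15 when 1 library was left out. Mcm5 was at 1.50 and Top2a at 0.467 within batch 2, and Spp1 at 0.407 within batch 1. Serpinb9 was at -0.276 with TMM, -0.136 within batch 2, -0.151 with library weights, -0.304 with edgeR, and -0.197 to 0.343 when 1 library was left out. For these the cause was not tested. Depth limited genes with few reads. In the batch 1 libraries of both groups a read is worth 1.65 to 1.87, more than the added 1. Low values therefore carry counting error, and a gene at 0 was not detected rather than absent.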
